A study of Mus musculus with 16 samples.

Results

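The step compared here is the one from MII spermatocytes, the secondary spermatocytes that enter the second meiotic division, to spermatids, the haploid cells that become sperm, in wild-type mice. Its members were chosen by sample title: 2 spermatid and 2 MII spermatocyte libraries, which make 4 of the 16 libraries of the series. All came from the testes of male C57BL/6J mice aged 8 weeks without a Tex10 mutation, and the whole series holds 4 cell types in 2 genotypes with 2 libraries each. The same step in the Tex10-deficient mice, which carry a floxed and a null Tex10 allele and the Stra8-iCre recombinase, served as a second set of 4 libraries. Stra8-iCre is driven by a promoter that is active in spermatogonia. The cells were sorted before RNA extraction; the sources used here do not give the method. Nothing in the labels ties the 2 libraries of a group to different mice, and p-values therefore rest on a spread between libraries that may be technical.

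Between the meiotic divisions and the spermatozoon, a round cell builds an acrosome from Golgi vesicles, grows a flagellum, replaces its histones first with transition proteins and then with protamines, and sheds most of its cytoplasm. Transcription stops when the chromatin is compacted, so mRNAs for late steps are made early and stored with proteins that delay their translation. The X and Y chromosomes are silenced in spermatocytes and stay largely repressed in spermatids, from which a set of X- and Y-linked genes escapes.

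Levels are given as FPKM, fragment counts normalised to transcript length and to the library's mapped fragments. Changes are spermatid minus MII on the log2(FPKM + 1) scale, which understates the change of genes with low levels, and genes were called with limma at a Benjamini-Hochberg adjusted p under 0.05. Replicates correlated across genes with a Spearman rho of 0.971 in spermatids and 0.881 in MII spermatocytes, where genes are not independent replicates. FPKM totals were 512412 and 533859 in spermatids, against 263763 and 249336 in MII spermatocytes, and 1160 and 1209 genes exceeded 100 FPKM in spermatids, against 340 and 331 in MII spermatocytes. Read numbers are unknown because the values carry no depth. Because the totals differed, levels were also rescaled to a common total, an alternative chosen after seeing the data.

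Wild-type spermatids and MII spermatocytes differed in most genes. Of 13099 genes tested, 5085 (38.8%) were higher and 4588 (35%) were lower in spermatids, 73.8% in all. The counts of every list below are to be read against these shares. The falls reached further than the rises. Among higher genes 177 (3.48%) changed by more than 4 on the log2 scale and none by more than 4.95, whereas among lower genes 581 (12.7%) did and the largest fall was 8.57. Scaled to a common FPKM total, 3273 genes were higher and 6097 lower, and the median change of all genes moved to −0.67, against 0.11 in the deposited values. The medians of the 15 lists of spermatid genes described below then ran from 0.97 to 3.01, against 1.97 to 4.03 in the deposited values, and were above 0 in both. In the plot of list levels, the spermatid lists were higher in both spermatid libraries, and the marker lists of somatic cells were higher in both MII libraries. Of all genes named below, wild-type spermatid and MII values overlapped for Cetn2, Calr and Ndufa1, none of which was called, and for no other. This follows in part from the choice of genes. Groups that do not overlap were also common in lists with small median changes. They numbered 242 of 280 zinc finger genes with a Zfp symbol (median −0.29) and 56 of 86 cytosolic ribosomal proteins (median −0.69). The share over all tested genes is not given here, so a lack of overlap does not set the named genes apart. The naming rule favoured large changes and took the largest rises and falls only from groups that do not overlap.

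**Figure D1:**
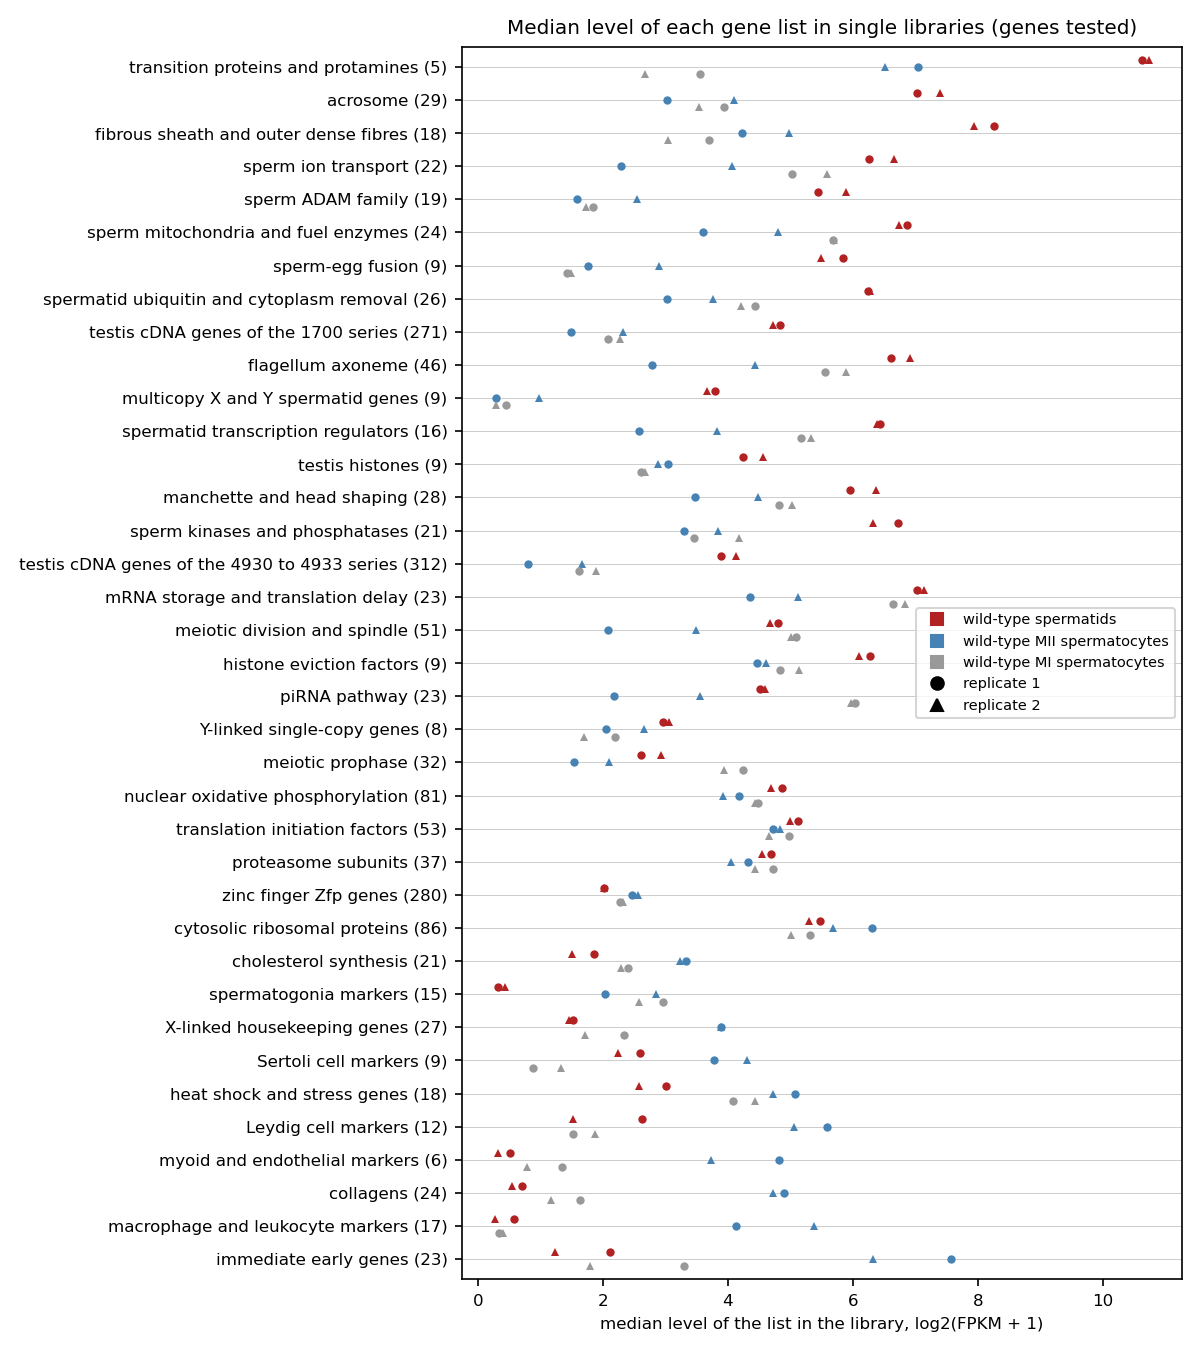
Median level of the tested members of each gene list, as log2(FPKM + 1), in single libraries of wild-type spermatids (red), MII spermatocytes (blue) and MI spermatocytes (grey), with circles for replicate 1 and triangles for replicate 2. Lists run from the largest median rise at the top (transition proteins and protamines, 4.03) to the largest median fall at the bottom (immediate early genes, −5.68); the number of tested genes is in brackets.

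The fractions were set against markers before any gene was described. No list of genes that define secondary spermatocytes was available, so the label of the MII fraction rests on the titles. The 51 tested genes of meiotic division and spindle had their lowest medians in MII spermatocytes, with 3.21 and 10.2 FPKM. Their medians were 33.1 and 31.4 FPKM in MI spermatocytes, 26.9 and 24.7 FPKM in spermatids and 19.98 and 19.29 FPKM in spermatogonia. Whether the MII fraction held mainly secondary spermatocytes was not tested. Markers of 4 somatic cell classes had higher summed levels in the MII fraction. Leydig cell markers summed to 92.8 and 34.0 FPKM in spermatids, against 1494 and 984 FPKM in MII spermatocytes, and 10 of 12 fell (median −3.57). Macrophage and leukocyte markers summed to 13.7 and 10.99 FPKM in spermatids, against 430 and 797 FPKM in MII spermatocytes, and 14 of 17 fell (median −4.23). Sertoli cell markers summed to 59.5 and 40.6 FPKM in spermatids, against 294 and 252 FPKM in MII spermatocytes, and 5 of 9 fell (median −2.01). For myoid and endothelial markers the sums were 4.29 and 5.40 FPKM in spermatids, against 153 and 93.1 FPKM in MII spermatocytes, and 5 of 6 fell (median −3.70). In MI spermatocytes the same 4 lists summed to 46.0 and 37.0 FPKM, 8.90 and 7.59 FPKM, 29.2 and 21.9 FPKM, and 10.8 and 5.08 FPKM. In spermatogonia they summed to 76.9 and 28.5 FPKM, 536 and 860 FPKM, 65.5 and 43.2 FPKM, and 80.4 and 42.1 FPKM. The macrophage and leukocyte sums of spermatogonia were thus near those of the MII fraction. Only 9 of 18 listed Sertoli cell markers and 6 of 12 listed myoid and endothelial markers had a row in the table. For macrophage and leukocyte markers it was 17 of 18, and for Leydig cell markers 12 of 12. The 7 erythroid markers had no row in the table.

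The MII replicates also differed from each other in germ cell transcripts. Genes of the flagellum axoneme had a median of 96.9 and 120 FPKM in spermatids, against 5.87 FPKM in MII replicate 1 and 20.6 FPKM in MII replicate 2. In these bulk samples fewer cells of a type and less RNA per cell cannot be told apart, and this holds for every level below. The part of somatic RNA in the rises and falls below was not tested. For the lists of spermatid genes, leaving out either MII library gave medians from 1.76 to 4.39, all above 0.

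Genes for the compaction of the sperm nucleus were among those with the highest levels in spermatids. All 5 transition proteins and protamines rose (median 4.03). Tnp1 (XLOC_000861, chromosome 1, 73015074 to 73015909, minus strand), the transition protein that takes the place of histones, stood at 2592 and 3301 FPKM in spermatids, against 152 and 115 FPKM in MII spermatocytes. Prm1 stood at 1592 and 1717 FPKM in spermatids, against 131 and 76.7 FPKM in MII spermatocytes, and Prm2 at 1791 and 3574 FPKM in spermatids, against 220 and 185 FPKM in MII spermatocytes. Both are protamines, the small basic proteins that pack sperm DNA. In each case both spermatid libraries lay far above both MII libraries. The log2 changes were 4.45 for Tnp1 (SE 0.31, limma adjusted p = 4.6e-07), 4.03 for Prm1 (SE 0.75, adjusted p = 0.00026) and 3.64 for Prm2 (SE 0.62, adjusted p = 0.00012). Prm3, the third gene of the protamine cluster, had the largest rise among the genes named by the rule, with 57.4 and 61.6 FPKM in spermatids, against 0 and 3.27 FPKM in MII spermatocytes (log2 change 4.87, SE 0.56, adjusted p = 5.2e-06). In GRCm38 the 3 genes lie side by side on the minus strand of chromosome 16, Prm3 from 10790505 to 10790914, Prm2 from 10791380 to 10796134 and Prm1 from 10796326 to 10805839. The list already had more RNA in MII than in MI spermatocytes, where its median was 10.8 and 5.39 FPKM, against 1592 and 1717 FPKM in spermatids and 131 and 90.2 FPKM in MII spermatocytes.

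Testis histones split. Of 9 tested, 5 rose (55.6%) and 2 fell (22.2%), beside 38.8% higher and 35% lower among all genes. With so few members these counts do not set the list apart. Hils1, a linker histone of spermatids, stood at 551 and 381 FPKM in spermatids, against 22.6 and 53.3 FPKM in MII spermatocytes (log2 change 3.68, SE 0.47, limma adjusted p = 1.3e-05). The linker histone H1fnt rose by 2.96 on the log2 scale, the short H2A variant H2afb1 by 3.78, and 1700024P04Rik, which RefSeq lists as H2bl1, by 3.70. In the other direction went the histone variants that replace canonical histones earlier, in spermatogonia and spermatocytes. Hist1h2aa, a testis H2A, stood at 13.7 and 20.3 FPKM in spermatids, against 162 and 338 FPKM in MII spermatocytes (log2 change −3.73, SE 0.51, adjusted p = 2.0e-05), with a mean of 1039 FPKM in MI spermatocytes and 10932 FPKM in spermatogonia. Hist1h2ba, a testis H2B, was listed at 0 in both spermatid libraries and at 7.24 and 5.69 FPKM in MII spermatocytes. It lies on the minus strand of chromosome 13 from 23933773 to 23934156, next to Hist1h2aa on the plus strand from 23934462 to 23934851. Histone mRNAs without a polyA tail are not captured by polyA enrichment, so these levels may cover only part of the transcripts. Among factors of histone removal, 6 of 9 rose and 0 fell (median 1.97). Brdt, a bromodomain protein that binds acetylated histones, stood at 464 and 534 FPKM in spermatids, against 23.4 and 73.9 FPKM in MII spermatocytes. Psme4, the proteasome activator that removes acetylated histones, rose by 3.19, the remodeller gene Chd5 by 2.97 and the acetyltransferase gene Kat8 by 2.09.

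Regulators of the spermatid programme rose together. Of 16 such genes 15 were higher (median 3.03), and Taf7l, the remaining one, had a change of 0.77. Crem, the transcription factor that switches on many postmeiotic genes, stood at 165 and 187 FPKM in spermatids, against 8.07 and 21.7 FPKM in MII spermatocytes (log2 change 3.62, SE 0.39, limma adjusted p = 3.8e-06). Its coactivator gene Fhl5 stood at 78.7 and 84.2 FPKM in spermatids, against 2.64 and 9.67 FPKM in MII spermatocytes. Groups did not overlap for either gene. Tbpl1, a relative of the TATA-binding protein that is needed for spermiogenesis, rose by 3.73 (SE 0.42), the orphan receptor gene Nr6a1 by 3.64 (SE 0.45), Hsf5 by 3.57 (SE 0.51) and Sox30 by 3.48 (SE 0.47). Rfx2, a factor of the winged helix family that binds X-box motifs of ciliary genes, rose by 2.93, Rfx3 by 2.55 and Rfx4 by 3.30, and these 3 were named after their values were seen.

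Single genes of the main groups are shown in the plot of levels by library. There the spermatid genes, X-linked Akap4 among them, stood to the right of both MII libraries in spermatids. The somatic genes and X-linked Rpl39 and Ddx3x stood to the left.

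**Figure D2:**
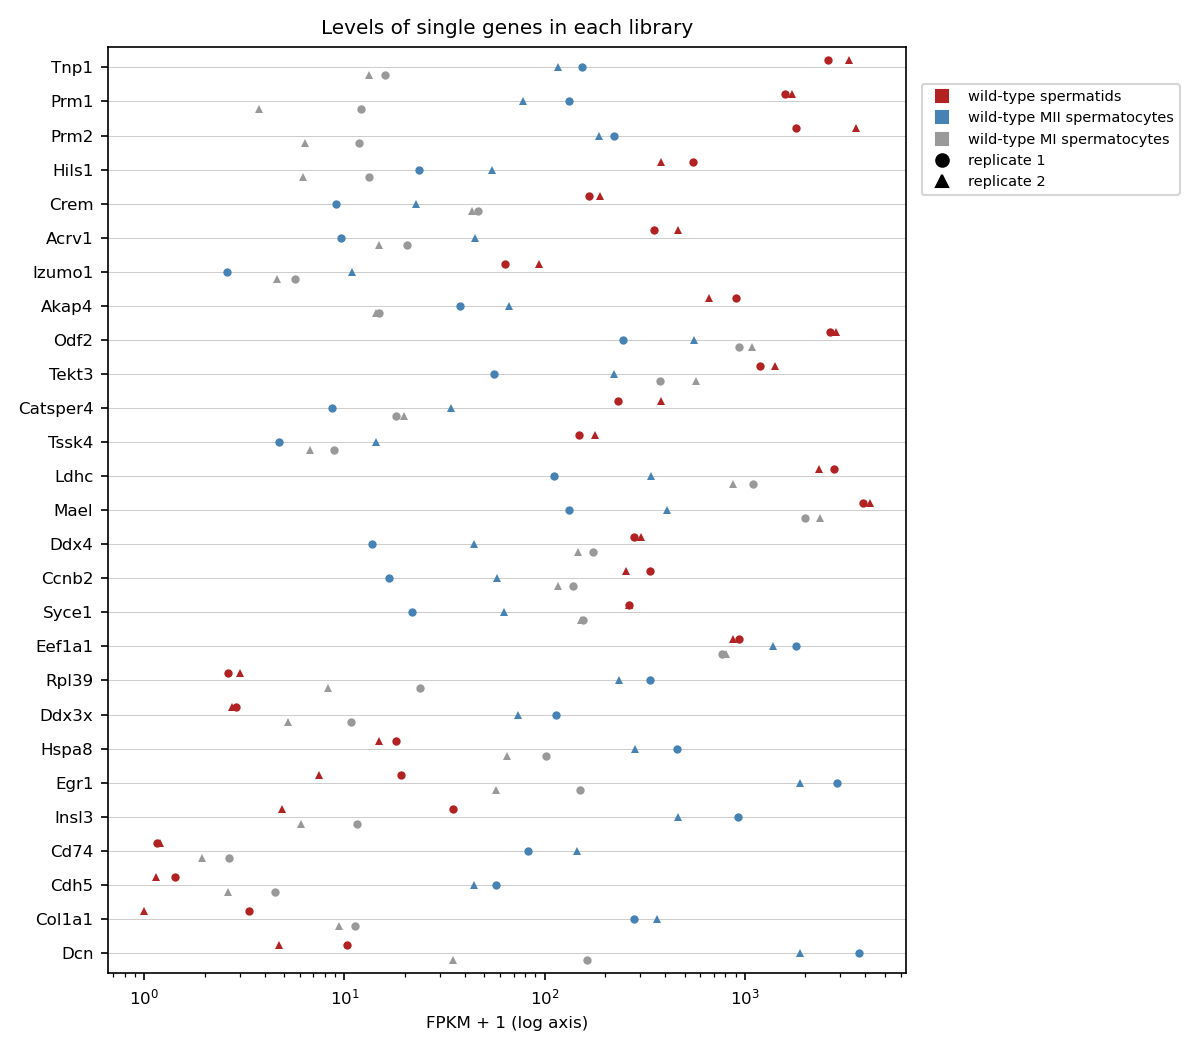
Levels of single genes as FPKM + 1 on a log axis in wild-type spermatids (red), MII spermatocytes (blue) and MI spermatocytes (grey), with circles for replicate 1 and triangles for replicate 2. Tnp1 stood at 2592 and 3301 FPKM in spermatids, against 152 and 115 FPKM in MII spermatocytes, whereas Dcn, at the bottom, stood at 9.35 and 3.70 FPKM in spermatids, against 3722 and 1879 FPKM in MII spermatocytes.

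Acrosome genes rose in 27 of 29 cases (median 3.54). Acrv1, a protein of the acrosomal matrix (XLOC_021780, chromosome 9, 36693220 to 36698843, plus strand), stood at 351 and 461 FPKM in spermatids, against 8.66 and 44.1 FPKM in MII spermatocytes (log2 change 4.27, SE 0.57, limma adjusted p = 1.7e-05). Zp3r, an acrosomal protein, stood at 96.9 and 169 FPKM in spermatids, against 2.09 and 10.7 FPKM in MII spermatocytes. Spam1, the sperm hyaluronidase, stood at 60.3 and 96.1 FPKM in spermatids, against 1.10 and 6.85 FPKM in MII spermatocytes. Their groups were far apart, although MII replicate 1 was below MII replicate 2 for each of these 3 genes. Eqtn, a protein of the inner acrosomal membrane, rose by 4.15 (SE 0.47). Crisp2, a cysteine-rich protein of acrosome and tail, was the most abundant gene of the list, with 2909 and 3493 FPKM in spermatids, against 91.4 and 362 FPKM in MII spermatocytes. The one gene that fell was Vps54, a subunit of a tethering complex of the Golgi that cells of other tissues also use, with 4.55 and 3.50 FPKM in spermatids, against 13.6 and 11.9 FPKM in MII spermatocytes (log2 change −1.46, SE 0.31, adjusted p = 0.00065). The remaining gene, Gopc, had a change of −0.38 and was not called.

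Genes for the meeting of sperm and egg followed the same course. All 9 tested genes of sperm-egg fusion rose (median 3.28). Izumo1, the sperm ligand of the egg receptor Juno, stood at 62.4 and 92.8 FPKM in spermatids, against 1.60 and 9.93 FPKM in MII spermatocytes (log2 change 3.85, SE 0.58, limma adjusted p = 4.2e-05). Tmem95, a membrane protein needed for fusion, stood at 37.3 and 26.6 FPKM in spermatids, against 0.762 and 1.20 FPKM in MII spermatocytes. 1700034O15Rik, which RefSeq lists as Llcfc1, rose by 4.26 (SE 0.63) and Izumo3 by 3.96 (SE 0.65). All 19 members of the sperm ADAM family, membrane proteins with a disintegrin and a metalloprotease domain, rose as well (changes from 2.86 to 4.23). Adam3, which sperm need to pass the oviduct and bind the egg coat, rose by 3.64 (SE 0.49), and Adam24, the member with the largest change, stood at 80.7 and 138 FPKM in spermatids, against 2.01 and 9.76 FPKM in MII spermatocytes. Several of these genes are close copies of each other, so reads could be shared between them and single levels are uncertain.

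The flagellum was represented by 46 tested axoneme genes and 18 genes of the fibrous sheath and outer dense fibres, and all 64 rose. The axoneme median change was 3.08 (range 1.53 to 4.0), and the sheath median 3.53. Tekt3, a filament protein inside the doublet microtubules, stood at 1194 and 1412 FPKM in spermatids, against 54.8 and 222 FPKM in MII spermatocytes (log2 change 3.54, SE 0.58, limma adjusted p = 8.2e-05). Cfap69, a cilia and flagella protein, rose by 4.0 (SE 0.49), and Meig1, needed to build the tail, by 3.98 (SE 0.41). In the sheath, Akap4 (XLOC_022998, chromosome X, 7067519 to 7078609, plus strand), the anchoring protein that makes up most of the fibrous sheath, stood at 903 and 661 FPKM in spermatids, against 36.9 and 65.4 FPKM in MII spermatocytes (log2 change 3.95, SE 0.69, adjusted p = 0.00015). Odf2, a main protein of the outer dense fibres, stood at 2647 and 2840 FPKM in spermatids, against 246 and 556 FPKM in MII spermatocytes (log2 change 2.89, SE 0.48, adjusted p = 9.5e-05). The 2 sets differed in the MI fraction. Axoneme genes had medians of 96.9 and 120 FPKM in spermatids, 5.87 and 20.6 FPKM in MII and 46.0 and 58.4 FPKM in MI spermatocytes, so that MII was the lowest of the 3. For sheath and fibre genes the medians were 310 and 246 FPKM in spermatids, 17.7 and 30.9 FPKM in MII and 12.2 and 7.28 FPKM in MI spermatocytes, so that MI was the lowest.

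Because axoneme genes rose with Rfx2, Rfx3 and Rfx4, the 250 bases upstream of their start sites were searched for the X-box, the motif of RFX factors, after values were seen. In RefSeq promoters (GRCm38.p6), which were found for 9999 of the 13099 genes, the X-box, searched as GTNNCC, any 3 bases and GNAAC on either strand, occurred in 3.04% of all genes. They occurred in 4.36% of higher genes, 1.41% of lower genes and 3.24% of genes that were not called. Matches stood in 2 of 23 acrosome genes (8.70%), 1 of 24 head-shaping genes (4.17%) and 0 of 14 sheath and fibre genes. Of 41 axoneme genes with a promoter, 7 (17.1%) held them. The matches are shown because they carry this comparison, with the motif in capitals, 5′ to 3′ on the strand of the gene:
Cfap44: ggagggacGTTGCTATGGCAACcgcagtaa
Cfap45: gttcttggGTTGCTATGGTAACgcgtc
Hydin: actctgcgGTTGCTGTGGCAACagatggt
Spag16: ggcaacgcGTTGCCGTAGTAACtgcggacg
Ttc29: gcccctctGTTTCCATGGAGACgctttcag
Tekt4: ccccacctGTGTCCTGGGAAACaaactcat
Dnah17: acgcccttGTCACCAGCGCAACcacagata
They end 13, 5, 7, 89, 27, 146 and 145 bases before the start site, in the order shown. On the plus strand lie Cfap44 at chr16:44394764-44394793, Cfap45 at chr1:172521103-172521129, Hydin at chr8:110266948-110266976, Spag16 at chr1:69826859-69826888, Ttc29 at chr8:78213293-78213322 and Tekt4 at chr17:25471422-25471451. Dnah17 lies on the minus strand at chr11:118129357-118129386. The changes of these 7 genes ran from 2.50 for Dnah17 to 3.42 for Spag16, within the range of the axoneme list.

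The X-box was 1 of 12 motifs searched. The others were the perfect X-box palindrome, GTTGCCA and GTTGCC, which overlap the X-box, then the CRE site TGACGTCA, the AP-1 site TGANTCA, the GC box GGGCGG, the STAT site TTCCNGGAA, the TATA box TATAAA, the MYB site AACNGTT, the SREBP site TCACCCCAC and the CArG box. The CRE site, to which Crem binds, occurred in 3.17% of all genes, 3.69% of higher genes, 2.36% of lower genes and 0 of 41 axoneme genes. GTTGCCA occurred in 4.60% of all, 6.64% of higher and 2.91% of lower genes, and the GC box in 60.1% of all, 51.9% of higher and 66.5% of lower genes. Among axoneme genes 5 of 41 (12.2%) held GTTGCCA, and among acrosome genes 4 of 23 (17.4%). A match describes letters in the window and does not show a bound site.

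Genes that shape the sperm head and build the manchette, the microtubule skirt around the elongating nucleus, rose in 23 of 28 cases (median 2.94). Spem1, a protein of spermatids that is needed to strip cytoplasm from the head, stood at 44.1 and 27.7 FPKM in spermatids, against 0.195 and 3.23 FPKM in MII spermatocytes (log2 change 4.0, SE 0.59, limma adjusted p = 3.9e-05). Sun3 and Sun5, proteins of the nuclear envelope, rose by 3.95 (SE 0.48) and 3.80 (SE 0.43), and Spata6, needed for the neck of the sperm, by 3.57 (SE 0.41). Ift20, a small subunit of intraflagellar transport, was the one gene that fell, with 14.1 and 9.99 FPKM in spermatids, against 38.6 and 27.8 FPKM in MII spermatocytes (log2 change −1.39, SE 0.36, adjusted p = 0.0028).

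Channels and transporters of the sperm membrane rose in 20 of 22 cases (median 3.52). Catsper4, a pore subunit of the sperm calcium channel, stood at 231 and 382 FPKM in spermatids, against 7.66 and 33.1 FPKM in MII spermatocytes (log2 change 4.12, SE 0.54, limma adjusted p = 1.6e-05). Efcab9, its pH- and calcium-sensing subunit, stood at 172 and 213 FPKM in spermatids, against 1.66 and 16.8 FPKM in MII spermatocytes (log2 change 4.81, SE 0.64), and Slco6c1 rose by 4.20 (SE 0.57). Hvcn1, a voltage-gated proton channel that immune cells also use, fell, with 0.189 and 0 FPKM in spermatids, against 3.99 and 2.18 FPKM in MII spermatocytes (log2 change −1.87, SE 0.39, adjusted p = 0.00058). Of 21 kinases and phosphatases of sperm, 20 rose (median 2.77). Tssk4, a testis-specific serine kinase, stood at 147 and 178 FPKM in spermatids, against 3.70 and 13.3 FPKM in MII spermatocytes, and Ppp3cc, the testis form of the calcineurin catalytic subunit, at 241 and 273 FPKM in spermatids, against 30.9 and 42.4 FPKM in MII spermatocytes.

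Enzymes of the sperm mitochondria and of fuel use rose in 22 of 24 cases (median 3.39). Ldhc (XLOC_018775, chromosome 7, 46861203 to 46878142, plus strand), the lactate dehydrogenase of germ cells, stood at 2802 and 2343 FPKM in spermatids, against 111 and 337 FPKM in MII spermatocytes (log2 change 3.72, SE 0.49, limma adjusted p = 1.7e-05). Slc16a7, a monocarboxylate transporter, had the largest rise of the list, with 449 and 592 FPKM in spermatids, against 10.9 and 43.8 FPKM in MII spermatocytes (log2 change 4.48, SE 0.57). Smcp, the protein of the mitochondrial capsule, rose by 3.82 (SE 0.43), Spata19 of the midpiece by 4.22 (SE 0.58) and the testis aldolase Aldoart1 by 4.22 (SE 0.70). Glul, the glutamine synthetase, fell by 4.91 on the log2 scale, with 47.5 and 21.3 FPKM in spermatids, against 1517 and 645 FPKM in MII spermatocytes. Tktl1, an X-linked transketolase relative, also fell (log2 change −1.27, SE 0.35, adjusted p = 0.0048), a call that was lost without MII replicate 2 (log2 change −0.98, adjusted p = 0.051) and after quantile normalization (log2 change −0.44, adjusted p = 0.30).

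Messenger RNA storage genes rose in 18 of 23 cases (median 2.59), and several stood near the top of all genes. Ybx3, a cold shock protein that binds stored mRNA, stood at 2924 and 3387 FPKM in spermatids, against 373 and 686 FPKM in MII spermatocytes (log2 change 2.63, SE 0.44, limma adjusted p = 9.8e-05). Pabpc1, the polyA-binding protein, stood at 2470 and 2939.7 FPKM in spermatids, against 242 and 554 FPKM in MII spermatocytes. Papolb, the polyA polymerase of spermatids, rose by 3.87 (SE 0.53). The 3 members that fell were Eif4e3, Tsn and Dazl. Eif4e3, a cap-binding protein, stood at 0.624 and 0.0826 FPKM in spermatids, against 22.7 and 17.8 FPKM in MII spermatocytes (log2 change −3.99, SE 0.35). Tsn, the single-strand binding protein translin, changed by −1.66 (SE 0.30). Dazl, an RNA-binding protein of earlier germ cells, changed by −1.14 (SE 0.43, adjusted p = 0.028), and its call was lost without either spermatid library or without MII replicate 2 (adjusted p = 0.053 to 0.24). Among genes for ubiquitin and the removal of cytoplasm, 23 of 26 rose and 0 fell (median 3.15). Asb17, a substrate adaptor of ubiquitin ligases, stood at 406 and 211 FPKM in spermatids, against 16.7 and 11.7 FPKM in MII spermatocytes, and Cul3, the scaffold of a ligase, at 473 and 675 FPKM in spermatids, against 77.4 and 119 FPKM in MII spermatocytes.

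Genes of the meiotic divisions, which spermatids have completed, were more often higher than lower in spermatids. Of 51 genes of division and spindle, 41 rose and 3 fell (median 2.12), with 28 higher and 4 lower scaled to a common FPKM total (median 1.15) and 31 higher and 2 lower without MII replicate 1 (median 1.53). Ccnb2, a B cyclin, stood at 335 and 253 FPKM in spermatids, 15.7 and 57.0 FPKM in MII spermatocytes, and a mean of 127 FPKM in MI spermatocytes (log2 change 3.23, SE 0.43, limma adjusted p = 1.8e-05). Ccna1, the cyclin of meiosis, rose by 3.27 (SE 0.49), the kinase gene Plk1 by 3.14 (SE 0.45), and the meiotic cohesin gene Smc1b by 3.45 (SE 0.56). Mad2l1, Cenpa and Fbxo5, a checkpoint protein, the centromeric histone H3 and an inhibitor of the anaphase-promoting complex, fell, from low levels of at most 4.02 FPKM in MII spermatocytes. The calls of these 3 genes were lost without some single libraries, with adjusted p up to 0.083 for Mad2l1, 0.11 for Cenpa and 0.19 for Fbxo5. They were also lost after quantile normalization, with limma adjusted p of 0.31 for Mad2l1, 0.31 for Cenpa and 0.41 for Fbxo5. Meiotic prophase genes rose in 16 of 32 cases (50%) and fell in 0 (median 0.98), beside 38.8% higher and 35% lower among all genes. Syce1, a protein of the central element of the synaptonemal complex, stood at 262 and 262 FPKM in spermatids, against 20.8 and 61.9 FPKM in MII spermatocytes, and a mean of 153 FPKM in MI spermatocytes. Sycp2, of its lateral element, stood at 55.4 and 87.7 FPKM in spermatids, against 4.76 and 19.1 FPKM in MII spermatocytes, and a mean of 178 FPKM in MI spermatocytes. Scaled to a common FPKM total, 9 prophase genes were higher and 4 lower (median 0.26), and without MII replicate 1 the counts were 11 and 1 (median 0.51).

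The piRNA pathway, which silences transposons and processes germ cell RNA, had 15 of 23 genes higher and 0 lower (median 1.70), or 11 higher and 1 lower scaled to a common FPKM total (median 0.77). Mael (XLOC_001174, chromosome 1, 166201201 to 166238747, minus strand), a protein of germ granules, had the highest mean level of all genes in spermatids, with 3891 and 4216 FPKM, against 132 and 408 FPKM in MII spermatocytes and a mean of 2185 FPKM in MI spermatocytes. Its log2 change was 4.12 (SE 0.49, limma adjusted p = 6.8e-06). Ddx4, the RNA helicase of germ granules, stood at 280 and 303 FPKM in spermatids, against 12.8 and 43.1 FPKM in MII spermatocytes (log2 change 3.57, SE 0.43), and Gtsf1 rose by 3.80 (SE 0.53). Spermatogonia markers fell in 11 of 15 cases (median −1.80). Crabp1, a retinoid-binding protein, was listed at 0 in both spermatid libraries and at 15.1 and 12.6 FPKM in MII spermatocytes, with a mean of 137 FPKM in spermatogonia. The largest fall of the list was that of Ccnd2, a D cyclin that somatic cells also use, with 0.0880 and 0.154 FPKM in spermatids, against 26.9 and 26.5 FPKM in MII spermatocytes, and a mean of 7.98 FPKM in spermatogonia.

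The largest falls of all genes were in transcripts of connective tissue and stroma. Dcn (XLOC_001747, chromosome 10, 97479609 to 97518143, plus strand), the matrix proteoglycan decorin, stood at 9.35 and 3.70 FPKM in spermatids, against 3722 and 1879 FPKM in MII spermatocytes (log2 change −8.57, SE 0.82, limma adjusted p = 1.6e-06), with a mean of 97.7 FPKM in MI spermatocytes. Mfap4, Gsn, Bgn, Sparcl1, Serping1, Ifitm3, Serpinf1, Cyp26b1 and Mgp followed, with falls from 8.50 to 7.74. They include the microfibril protein Mfap4, the actin-severing gelsolin Gsn, the proteoglycan biglycan Bgn, the complement inhibitor Serping1 and Cyp26b1, the enzyme that clears retinoic acid. Of 24 collagens, 19 fell and 2 rose (median −4.06), and Col1a1 stood at 2.34 and 0 FPKM in spermatids, against 277 and 365 FPKM in MII spermatocytes. Insl3, the hormone of Leydig cells, stood at 33.8 and 3.89 FPKM in spermatids, against 918 and 463 FPKM in MII spermatocytes (log2 change −5.65, SE 1.07, adjusted p = 0.00028). The spermatid replicates differed most here, and groups did not overlap. Cd74, of antigen presentation, stood at 0.162 and 0.205 FPKM in spermatids, against 81.1 and 144 FPKM in MII spermatocytes, and Lyz2, the lysozyme of macrophages, at 1.39 and 0.374 FPKM in spermatids, against 78.2 and 125 FPKM in MII spermatocytes. The endothelial cadherin Cdh5 stood at 0.432 and 0.144 FPKM in spermatids, against 56.4 and 43.6 FPKM in MII spermatocytes.

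Immediate early genes, which cells switch on within minutes of a stimulus, fell in 20 of 23 cases with the largest list median (−5.68). Their sum was 213 and 217 FPKM in spermatids, against 10818.5 and 6152 FPKM in MII spermatocytes. Fos stood at 6.31 and 1.55 FPKM in spermatids, against 1166 and 631 FPKM in MII spermatocytes (log2 change −7.63, SE 0.82, limma adjusted p = 3.4e-06). Egr1, a zinc finger factor, stood at 18.1 and 6.42 FPKM in spermatids, against 2879.5 and 1874 FPKM in MII spermatocytes, and Zfp36, which destabilizes mRNAs, at 14.4 and 4.97 FPKM in spermatids, against 2589 and 1320.3 FPKM in MII spermatocytes. In MI spermatocytes Egr1 averaged 103 FPKM and Fos 37.8 FPKM. Fosl1 went the other way, with 12.8 and 11.2 FPKM in spermatids, against 4.29 and 1.90 FPKM in MII spermatocytes (log2 change 1.73, SE 0.40, adjusted p = 0.0014). Scaled to a common FPKM total, its call was lost (log2 change 0.85, adjusted p = 0.079) and 0 genes of the list were higher. Somatic markers fell beside these genes, as given above, and their part in the result was not tested.

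Stress and chaperone genes were split by family member. Of 18, 13 fell and 3 rose (median −2.77). Hspa8, the constitutive heat shock cognate, stood at 17.2 and 13.9 FPKM in spermatids, against 456 and 283 FPKM in MII spermatocytes (log2 change −4.45, SE 0.34, limma adjusted p = 5.2e-07). Hsp90aa1 and Hsp90ab1, the inducible and the constitutive form of a chaperone, were called in opposite directions. Hsp90aa1 stood at 914 and 1151 FPKM in spermatids, against 217 and 329 FPKM in MII spermatocytes (log2 change 1.94, SE 0.32), and Hsp90ab1 at 94.9 and 77.0 FPKM in spermatids, against 537 and 348 FPKM in MII spermatocytes (log2 change −2.33, SE 0.29). The cochaperone gene Dnajb1 rose by 1.40 (SE 0.34) and Hsph1 by 1.27 (SE 0.32). These 3 rises depended on the scaling. Hsp90aa1 lost its call after quantile normalization (log2 change 0.64, limma adjusted p = 0.12), and Dnajb1 and Hsph1 scaled to a common FPKM total (log2 changes 0.39 and 0.33), so that under either 1 gene of the list was higher and 14 were lower.

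Many germ cell genes are retrocopies or paralogs of widely expressed genes, and the pairs diverged at this step. Of 27 listed pairs 25 had both genes tested. The germ cell gene rose in all 25 (median 3.42), whereas the widely expressed relative fell in 16, rose in 5 and was not called in 4 (median −1.57), and 8 of the relatives lie on the X chromosome. Of the germ cell genes, Cstf2t, Cyct and Rbmxl2 lost their calls scaled to a common FPKM total (log2 changes 0.13, 1.17 and 0.73, limma adjusted p = 0.71, 0.063 and 0.29). Cyct also lost it after quantile normalization (adjusted p = 0.076), and Rbmxl2 without either MII library (adjusted p = 0.056 without replicate 1 and 0.12 without replicate 2). The ribosomal protein pair stood furthest apart. Rpl39l (chromosome 16) held 53.1 and 41.3 FPKM in spermatids, against 1.04 and 3.92 FPKM in MII spermatocytes (log2 change 3.91, SE 0.45, limma adjusted p = 5.8e-06). Rpl39 (XLOC_023623, chromosome X, 37082520 to 37085402, minus strand) held 1.63 and 2.02 FPKM in spermatids, against 336 and 233 FPKM in MII spermatocytes (log2 change −6.64, SE 0.78, adjusted p = 6.5e-06). For glycolysis, Pgk2 rose by 3.90 and X-linked Pgk1 changed by −1.74, and Gapdhs rose by 3.60 and Gapdh changed by −2.72. Pdha2, of pyruvate dehydrogenase, rose by 3.69 and X-linked Pdha1 changed by −4.92. The chaperone Hspa2 rose by 2.95 beside the fall of Hspa8. Exceptions were Ldha, Eno1, Tbp, Papola and Ppp3ca, which rose with their germ cell partners, and Cetn2, Cstf2, Calr and Canx, which were not called. Among those 5 rises, Eno1, Papola and Ppp3ca lost their calls both after quantile normalization (log2 changes 0.35, 0.32 and 0.45) and scaled to a common FPKM total (0.22, 0.33 and 0.24), and Ldha after quantile normalization (0.70, limma adjusted p = 0.087). Among the falls, Pgk1, Cycs and Rbmx lost their calls after quantile normalization (log2 changes −0.99, −0.34 and −0.64, limma adjusted p = 0.076, 0.45 and 0.052). Without MII replicate 1 the changes of Cycs and Ppp3r1 were −0.99 and −1.15. Canx was called lower after quantile normalization (−1.07) and scaled to a common FPKM total (−0.81). Reads from close copies may be shared between the genes of a pair.

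**Figure D3:**
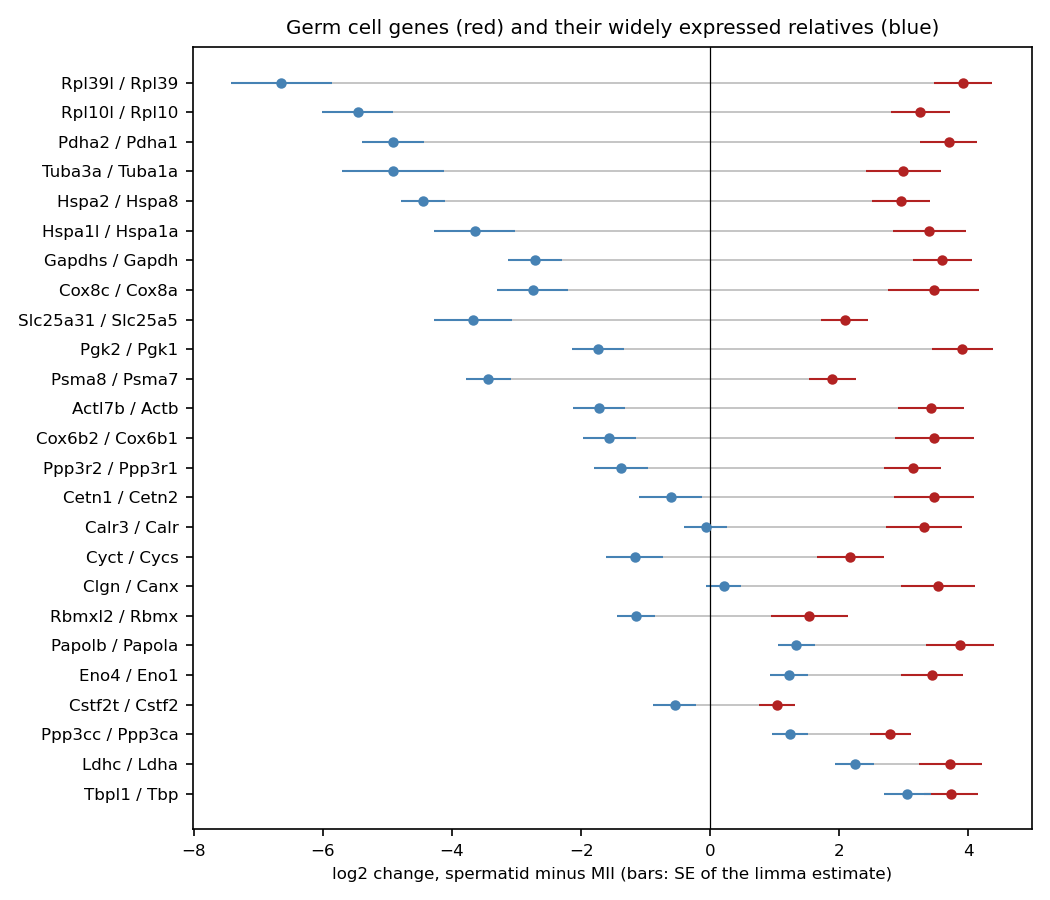
Log2 change (spermatid minus MII, wild type) of germ cell genes (red) and their widely expressed relatives (blue) in 25 pairs, named as germ cell gene / relative, with bars for the SE of the limma estimate. All 25 germ cell genes lie above 0, and the relatives range from −6.64 (Rpl39) to 3.06 (Tbp).

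The sex chromosomes departed from the autosomes. The 503 tested X-linked genes had a median change of −1.07, with 27.2% higher and 51.7% lower, and the 12559 autosomal genes a median of 0.15, with 39.3% higher and 34.4% lower. Medians of single autosomes ran from −0.03 (chromosome 6) to 0.47 (chromosome 14). All tested X-linked genes had median levels of 2.07 and 1.805 FPKM in spermatids, against 5.06 and 5.39 FPKM in MII spermatocytes. In MI spermatocytes the medians were 1.52 and 1.003 FPKM, and in spermatogonia 3.96 and 4.07 FPKM. The MII fraction thus had the highest X-linked medians, and spermatids stood above MI spermatocytes. The part of somatic RNA in the X-linked fall was not tested. Housekeeping genes of the X chromosome fell in 21 of 27 cases and rose in 2 (median −1.84). Ddx3x, an RNA helicase, stood at 1.86 and 1.75 FPKM in spermatids, against 112 and 72.9 FPKM in MII spermatocytes (log2 change −5.03, SE 0.57, limma adjusted p = 4.7e-06), with a mean of 7.01 FPKM in MI spermatocytes. Rps4x, a ribosomal protein, stood at 1.08 and 1.49 FPKM in spermatids, against 95.0 and 70.6 FPKM in MII spermatocytes, with a mean of 3.75 FPKM in MI spermatocytes. The rises were Cul4b, a ubiquitin ligase scaffold, with 69.3 and 99.9 FPKM in spermatids, against 22.1 and 30.4 FPKM in MII spermatocytes, and Phf6, with 12.5 and 15.7 FPKM in spermatids, against 4.80 and 3.44 FPKM in MII spermatocytes. Scaled to a common FPKM total both calls were lost (log2 changes 0.64 for Cul4b and 0.65 for Phf6, limma adjusted p = 0.10 and 0.063), 0 genes of the list were higher and 24 were lower, and Cul4b also lost its call after quantile normalization (0.52, adjusted p = 0.13). X-linked genes were then split by libraries that do not enter the comparison. Where the MI mean exceeded the spermatogonia mean, 95 of 111 genes were higher and 9 lower (median 3.24), and elsewhere 42 of 392 were higher and 251 lower (median −1.78). The 111 genes had median levels of 17.4 and 18.9 FPKM in spermatids and 0.962 and 2.09 FPKM in MII spermatocytes. In MI spermatocytes the medians were 0.793 and 0.689 FPKM, and in spermatogonia 0 and 0 FPKM. The 1 FPKM filter kept 13099 of the 13101 genes in the table. With such low levels elsewhere, a gene could have its row in the deposited table largely through spermatids. Their rise could thus be partly fixed in advance.

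**Figure D4:**
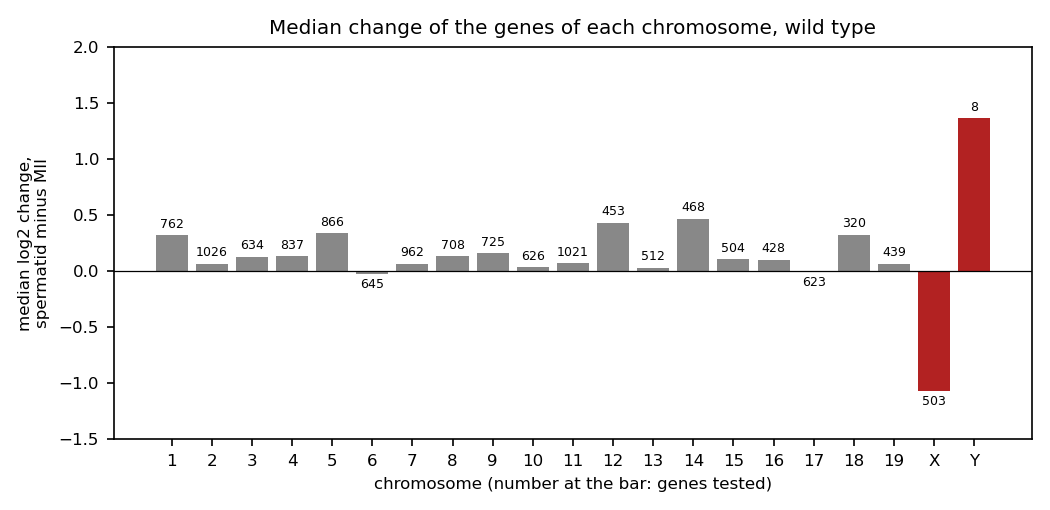
Median log2 change (spermatid minus MII, wild type) of the tested genes of each chromosome, with autosomes in grey and the sex chromosomes in red and the number of genes at each bar. The X chromosome stands at −1.07 and the Y chromosome, with 8 genes, at 1.36.

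Among X-linked and Y-linked genes that work in spermatids, direction differed by gene. All 9 tested multicopy genes rose (median 3.03), among them Cypt1, a cysteine-rich nuclear protein of spermatids, with 30.8 and 20.6 FPKM in spermatids, against 1.71 and 1.92 FPKM in MII spermatocytes. Reads cannot be assigned with certainty within such families, and the other 14 listed members had no row in the table. Median levels of the 9 genes were 12.8 and 11.6 FPKM in spermatids and 0.216 and 0.969 FPKM in MII spermatocytes. They were 0.364 and 0.214 FPKM in MI spermatocytes and 0 and 0 FPKM in spermatogonia. All 9 members with a row passed the 1 FPKM filter. A member could have its row in the deposited table largely through spermatids, so the shared rise could be partly fixed by which members had one. Of 8 single-copy Y genes 5 rose and 2 fell, or 3 and 3 scaled to a common FPKM total. Zfy2, a zinc finger transcription factor, stood at 14.97 and 18.0 FPKM in spermatids, against 1.26 and 2.15 FPKM in MII spermatocytes (log2 change 2.71, SE 0.39, limma adjusted p = 3.3e-05), and Zfy1 rose by 2.62 (SE 0.35). Eif2s3y, a translation initiation factor subunit, rose by 1.68 (SE 0.31), a call lost when scaled to a common FPKM total (0.69, limma adjusted p = 0.065), and its X-linked partner Eif2s3x changed by −3.18 (SE 0.34). Ddx3y and Kdm5d, a helicase and a histone demethylase, fell by 2.79 and 2.97 on the log2 scale.

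Shares of genes called in the lists of housekeeping machinery are read here against 38.8% higher and 35% lower among all genes. Of 86 cytosolic ribosomal proteins 37 fell and 5 rose (median −0.69), and the falls numbered 20 without MII replicate 1, 61 after quantile normalization and 62 scaled to a common FPKM total, where the median was −1.68. Rpl4 stood at 164 and 172 FPKM in spermatids, against 523 and 372 FPKM in MII spermatocytes (log2 change −1.39, SE 0.31, limma adjusted p = 0.0011), whereas the X-linked Rpl10, Rpl36a and Rps4x fell by 5.46, 5.06 and 5.19 on the log2 scale. The rises included Rpl10l, Rpl39l and Rpl36al, relatives of 3 X-linked ribosomal genes. Rpl36al lost its call after quantile normalization and scaled to a common FPKM total (log2 changes 0.28 and 0.27, limma adjusted p = 0.54 and 0.50), and 2 genes of the list were then higher. Nuclear genes of oxidative phosphorylation rose in 35 of 81 cases (43.2%) and fell in 10 (12.3%; median 0.91), but scaled to a common FPKM total 15 were higher and 19 lower (median −0.08). Cox7b2, a germ cell subunit of cytochrome oxidase, stood at 440.2 and 358 FPKM in spermatids, against 13.5 and 44.3 FPKM in MII spermatocytes, and its X-linked relative Cox7b at 0.161 and 0 FPKM in spermatids, against 10.2 and 6.62 FPKM in MII spermatocytes. Proteasome subunits rose in 13 of 37 cases (35.1%), a share near that of all genes, and fell in 9 (24.3%; median 0.28), with a median of −0.69 scaled to a common total and −0.21 after quantile normalization. Psma8, the germ cell form of a core subunit, rose while its relative Psma7 fell by 3.43, with 6.13 and 7.10 FPKM in spermatids, against 84.6 and 77.9 FPKM in MII spermatocytes. Translation initiation factors rose in 21 of 53 cases (39.6%), also near the share of all genes, and fell in 13 (24.5%; median 0.52), and their median turned to −0.46 and −0.28 under the same scalings.

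Cholesterol synthesis genes went in both directions. Of 21 genes 13 fell and 4 rose (median −1.01). Scaled to a common FPKM total 16 were lower and 2 higher (median −1.81). The rises included Idi1 (log2 change 1.94, and 0.98 with the call lost under that scaling, adjusted p = 0.055), Sqle (2.41) and Fdft1, which makes squalene (3.16, SE 0.39, limma adjusted p = 9.4e-06). Fdft1 stood at 578 and 742 FPKM in spermatids, against 45.9 and 114 FPKM in MII spermatocytes. The falls included Msmo1, a sterol methyl oxidase of a later step, at 0.562 and 0.342 FPKM in spermatids, against 10.1 and 9.02 FPKM in MII spermatocytes. Leydig cells also express this pathway, and the fall of their markers beside these genes was given above.

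Tex10 itself, which encodes a nuclear protein of a ribosome maturation complex, stood at 98.8 and 116 FPKM in wild-type spermatids, against 13.8 and 27.4 FPKM in wild-type MII spermatocytes (log2 change 2.40, SE 0.31, limma adjusted p = 1.3e-05). In the Tex10-deficient libraries it stood at 31.8 and 34.8 FPKM in spermatids, against 8.11 and 7.29 FPKM in MII spermatocytes.

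The same step in Tex10-deficient mice shares no library with the wild-type comparison, although 1 fit gives the spread of both. There 5089 genes (38.9%) were higher and 4829 (36.9%) were lower in spermatids, 75.7% in all. Of the wild-type rises 93.3% were also called higher in the Tex10-deficient libraries, and of the Tex10-deficient rises 93.2% in the wild type. For the falls the shares were 94.3% of the wild-type and 89.6% of the Tex10-deficient calls, and 2 genes were called in opposite directions. Across genes, which are not independent replicates, changes correlated with a Pearson r of 0.972. The title and the cell type field disagree for 3 of these 4 Tex10-deficient libraries, and with groups taken from the field 0 genes were called higher or lower in limma.

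No gene passed the test of the difference between genotypes (limma, 0 of 13099 or 0%), where 784 had an unadjusted p under 0.05, 606 of them with the more positive change in Tex10-deficient cells. Without wild-type MII replicate 1, 330 genes were higher and 6 lower by this test. Medians of 14 of the 15 spermatid lists were larger in Tex10-deficient mice, for example 4.42 for axoneme genes, against 3.08 in the wild type, and transition proteins and protamines were the exception, with 3.44 in Tex10-deficient mice, against 4.03 in the wild type. The size of this gap depended on single MII libraries. The wild-type axoneme median was 3.95 without MII replicate 2 and 2.27 without MII replicate 1. Tnp1 changed by 3.44 in Tex10-deficient mice, against 4.45 in the wild type (unadjusted p of the difference 0.039, adjusted p = 0.83). Of the smallest p, Ndufa1, an X-linked subunit of complex I, stood at 0.668 and 0.625 FPKM in Tex10-deficient spermatids, against 13.2 and 18.0 FPKM in Tex10-deficient MII spermatocytes, while wild-type spermatids held 5.90 and 5.61 FPKM, against 4.16 and 6.37 FPKM in wild-type MII spermatocytes (adjusted p of the difference 0.12). Hist1h2aa stood at 92.3 and 232 FPKM in Tex10-deficient spermatids, against 154 and 77.4 FPKM in Tex10-deficient MII spermatocytes, and these groups overlapped, unlike those of the wild type (adjusted p of the difference 0.22). For Rxfp1, a relaxin receptor, the wild-type fall of 2.66 stood beside a change of −0.32 in Tex10-deficient mice (adjusted p of the difference 0.12).

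**Figure D5:**
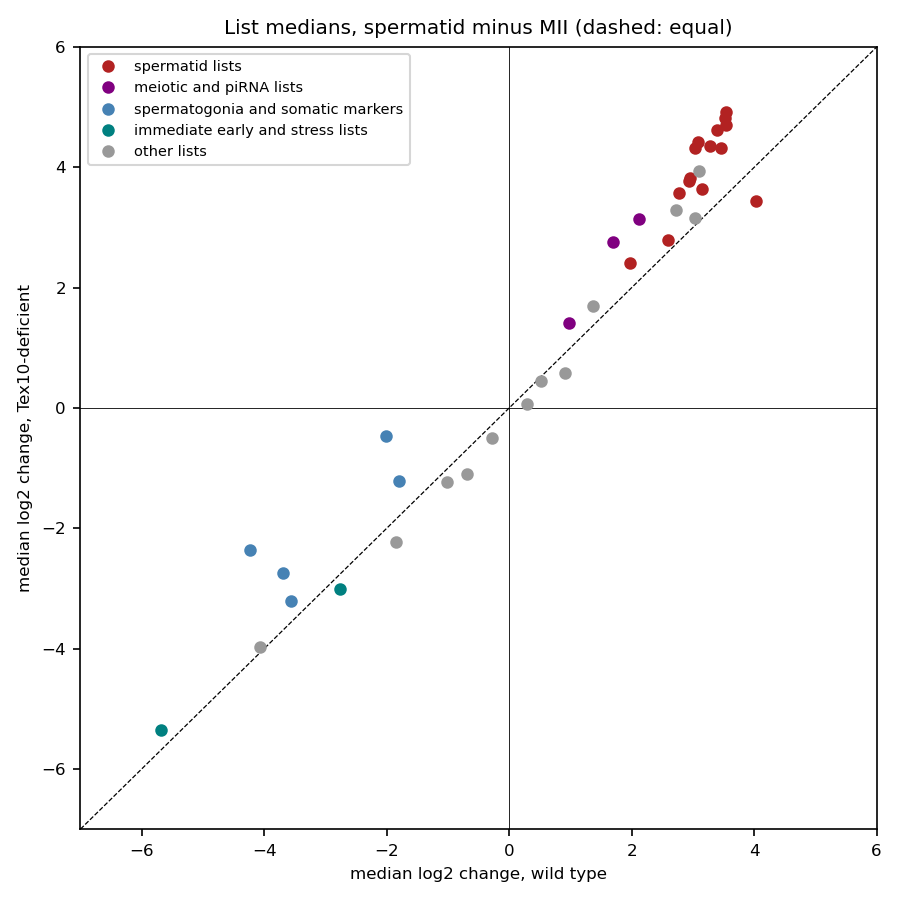
Median log2 change (spermatid minus MII) of each gene list in Tex10-deficient mice (vertical axis) and in wild-type mice (horizontal axis), with a dashed line for equal values. Axoneme genes stand at 4.42 in Tex10-deficient and 3.08 in wild-type mice, and transition proteins and protamines, at 3.44 and 4.03 in the same order, are the spermatid list below the line.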

How the data were processed

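RNA from sorted cells was sequenced as polyA-enriched libraries, per the labels' protocols. Per the submitters' processing notes, the authors checked reads (FastQC 0.10.1), trimmed them (cutadapt and Trim Galore 0.6.3), aligned them to mm10 (STAR 2.7.6a) and derived expression values (Cufflinks 2.2.1). The sources used here do not give annotation, strandedness or the handling of multi-mapped reads. The deposited values are FPKM to which the authors had added 1, and 1 was subtracted. Of these values 3.33% were then 0, and such a gene is described as listed at 0.

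A gene was tested if 2 or more libraries reached 1 FPKM (13099 of 13101; 1 gene had a non-number). The table thus held almost no gene below this filter, and the setting without a filter is not a separate check. How genes were chosen for the deposited table is not known here. Values on the log2(FPKM + 1) scale were fitted by limma (version 3.58.1, R version 4.3.3, lmFit and eBayes with trend) over all 16 libraries in 8 title groups, with 8 residual degrees of freedom. P-values were adjusted over all 13099 genes. Lists are described by counts and medians, with no set test. Members, lists, pairs and tests were chosen with earlier results of these data known. Genes were named by a rule that took, from calls with groups that do not overlap and at least 5 FPKM, the 10 largest rises and falls with a symbol that is not predicted. It added up to 4 members of each list by change, 3 by level and 3 against the list's direction, the 10 most abundant genes of each group, both genes of each pair, the 5 smallest p for the difference between genotypes, and Tex10. Other genes named are said to be named after their values were seen, or complete a count. Taf7l, Gopc and the axoneme genes with an X-box were named so. Some genes that the rule picks are not reported here.

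Gene positions, found by symbol for 12573 genes, come from GENCODE M21 (GRCm38, which is mm10); promoters are from RefSeq (GRCm38.p6). The fit was tested on simulated data for the wild-type comparison, with 200 changed genes. There 7.27% of log2 changes of size 1 and 60% of size 2 were recovered, with 3 false calls among 65. In the data 73.8% of genes were called, and the adjusted p depends on the share of changed genes. The simulated recovery therefore does not give the recovery in the wild-type comparison. Results were recomputed with quantile normalization or median-of-ratios scaling, with pseudocounts of 0.1 and 5, with a filter at 5 FPKM and with none, with array weights, without the eBayes trend, with a replicate block, with fewer libraries in the fit, with groups from the cell type field, with each library left out, and, added after seeing the data, scaling to a common FPKM total. Python 3.11.15, pandas 2.3.3 and matplotlib 3.10.9 were used.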

Additional observations from a re-analysis of the deposited data

How the results depend on the processing

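In the wild type, 12 other settings chosen with the design gave 4836 to 5255 higher and 4046 to 4707 lower genes, against 5085 and 4588, and leaving out 1 library gave 4449 to 4938 higher and 4150 to 4396 lower. Scaled to a common FPKM total, 3273 genes were higher, and the median of all genes was −0.67. Tex10-deficient counts ran from 4729 to 5248 higher and from 4365 to 4970 lower (4629 to 4911 and 4379 to 4559 with 1 library left out). Grouped by the cell type field they were 0 and 0, and the difference between genotypes was then called in 2061 genes upwards and 1845 downwards. That difference otherwise gave 0 calls, except 1 higher and 1 lower with a pseudocount of 0.1, 1 higher with a pseudocount of 5, and 0 to 330 higher and 0 to 6 lower with 1 library left out. A fit that leaves out a library assumes that the lone remaining one varies like the other groups.

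The replicate block gave 5230 higher and 4691 lower genes in the wild type when shared by both genotypes, and 5255 and 4707 within genotype. Deviations of same-numbered MII and spermatid libraries correlated at 0.195, and with 2 numbers only, the libraries were not treated as paired.

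List medians reversed scaled to a common total for oxidative phosphorylation (−0.075), proteasome subunits (−0.69) and translation initiation factors (−0.46), and after quantile normalization for proteasome subunits (−0.21), initiation factors (−0.28) and Zfp genes (0.15). Single genes that reversed were Hspa5 (−1.07 after quantile normalization, −0.74 scaled to a common total), Rps25 (−1.08 and −0.82), Canx (−1.07 and −0.81) and Eif4g2 (−0.12 after quantile normalization); the cause was not tested. Of 292 genes named by the rule 281 were called, and 40 lost the call in at least 1 alternative. With 2 libraries a group and unknown depth, 0 values and changes of genes with few FPKM are the least certain.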

Other observations

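Predicted or clone-type names (such as Rik names, some of which now have gene names) were carried by 907 of the 5085 higher genes (17.8%) and 152 of the 4588 lower genes (3.31%), beside 9.85% of all genes tested. Of 271 tested genes of the 1700 series of testis cDNA clones, 253 rose and 0 fell (median 3.10), and of 312 genes of later testis clone series 284 rose and 4 fell (median 2.73), beside 38.8% higher and 35% lower among all genes. The most abundant was 1700003M02Rik, with 1077 and 1422 FPKM in spermatids, against 43.9 and 199.6 FPKM in MII spermatocytes. The largest rise of the 1700 series was that of 1700007K09Rik, with 82.0 and 125 FPKM in spermatids, against 1.40 and 5.46 FPKM in MII spermatocytes (log2 change 4.70, SE 0.44, limma adjusted p = 1.4e-06). Against the direction of its series, 4931406P16Rik stood at 4.49 and 3.23 FPKM in spermatids, against 29.0 and 28.7 FPKM in MII spermatocytes.

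Zinc finger genes with a Zfp symbol went both ways, with 82 of 280 higher (29.3%) and 104 lower (37.1%; median −0.29), beside 38.8% and 35% among all genes. After quantile normalization 97 were higher and 74 lower (median 0.15), and scaled to a common FPKM total 49 were higher and 153 lower (median −1.03). Zfp654 rose by 3.79 (SE 0.42) and Zfp39 by 3.53 (SE 0.59), whereas Zfp871 changed by −3.62 (SE 0.47) and Zfp395 by −3.69 (SE 0.37). Among collagens, Col2a1, a collagen of cartilage, went against its family, with 52.3 and 46.9 FPKM in spermatids, against 2.97 and 12.6 FPKM in MII spermatocytes. Genes that rose had a median longest transcript of 2831.5 bases, against 3639 bases for genes that fell and 3214 for all genes with a length, and the 100 most abundant genes had medians of 1872 bases in spermatids and 2331 in MII spermatocytes.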
